A study of Mus musculus with 5 samples.

Results

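The genes described here are the nuclear genes for subunits of the mitochondrial respiratory chain. They were taken by symbol from single-cell RNA sequencing of mouse pancreatic islets: every row named Nduf followed by a, b, c, s or v and a digit, Cox4 to Cox8 followed by a letter, Atp5, Uqcr or Sdha to Sdhd. Of 32285 rows, 85 matched, and 83 held at least 20 unique molecular identifiers (UMIs, counted molecules) over the 5 libraries. The other two were Cox8b, with 9 UMIs, and Cox8c, with 0. The 83 members held 1793744 UMIs in all, with a median of 18258 per gene, from 21 for Cox7b2 to 73294 for Cox8a. By complex, 36 belong to complex I, 4 to complex II, 8 to complex III, 18 to complex IV and 17 to complex V, the ATP synthase.

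The respiratory chain sits in the inner mitochondrial membrane. Complexes I and II pass electrons from NADH and succinate to ubiquinone, complex III hands them to cytochrome c, and complex IV passes them to oxygen. The proton gradient that complexes I, III and IV build drives ATP synthase. In beta cells the ATP made from glucose closes potassium channels, and the depolarisation that follows triggers insulin release. Most subunits are encoded in the nucleus and imported, while 13 are encoded in mitochondrial DNA and serve below as a reference list.

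Islets were picked by hand from 5 NOD.Cg-Prkdcscid/J (NOD.SCID) mice, a strain with the scid allele of Prkdc, in which lymphocytes do not mature, and each mouse gave 1 droplet library with 3 prime chemistry. Chow mice 1, 2 and 3 were 8, 10 and 10 weeks old. HC mice 1 and 2, fed a diet labelled 20% HC (hydrolyzed casein), were 7 and 9 weeks old. Library names began with FUN for chow mouse 1 and HC mouse 1 and with SKY for chow mice 2 and 3 and HC mouse 2, a mark whose meaning is not given. The FUN mice were the younger ones, so prefix and age cannot be told apart. The title of HC mouse 2 calls it chow-fed, while its diet label gives HC, which was followed. Within a cell type the p-values measure the spread between these 5 mice. Between cell types they measure the spread of differences within the same mice, with an estimate shared by the types.

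The libraries held between 28722244 and 39624978 UMIs in 4452 to 6087 barcodes, and 3656 to 5122 cells per mouse passed the filters. Pairs of libraries shared 4 to 14 barcodes. Cells had a median of 2.79% and 3.61% mitochondrial UMIs in the FUN libraries (chow mouse 1, HC mouse 1) and 2.01%, 2.38% and 2.62% in the SKY libraries, with no overlap. Clusters made without the members of the list were called beta-like, alpha-like, delta-like, macrophage-like or endothelial-like from their marker genes (Ins1, Ins2 and Mafa; Gcg and Ttr among others; Sst, Rbp4 and Hhex; Lyz2, C1qb and Cd74; Plvap, Flt1 and Kdr), and are named without the suffix below. Each mouse gave 1537 to 2373 beta, 727 to 1192 alpha, 373 to 460 delta, 57 to 126 macrophage and 80 to 271 endothelial cells. Hormone transcripts (Ins1, Ins2, Iapp, Gcg, Sst, Ppy, Pyy) took 69.3% ± 3.63 of all UMIs in beta cells (SD, n = 5), 44.6% ± 1.41 in alpha, 30.9% ± 0.798 in delta, 25.5% ± 5.00 in macrophages but 1.72% ± 0.648 in endothelial cells. Levels are therefore given as CPM, here UMIs per 1000000 UMIs outside those 7 hormone genes, unless another scale is named.

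Of the 5 cell types tested, beta cells gave the largest share of their transcripts outside hormones to the respiratory chain and endothelial cells the smallest. The summed members made up 2.84%, 3.44% and 3.31% of these UMIs in beta cells of chow mice 1, 2 and 3, and 2.85% and 3.38% in HC mice 1 and 2. The mean over the 5 mice was 3.17% ± 0.295 in beta cells, 2.74% ± 0.224 in delta, 2.5% ± 0.256 in alpha, 2.06% ± 0.242 in macrophages but 1.85% ± 0.223 in endothelial cells (SD, n = 5 each). Neighbours in that order overlapped between mice, although the order was the same within each of the 5 mice. Beta did not overlap with alpha cells between mice, nor delta cells with macrophages, nor alpha with endothelial cells. Of all UMIs, hormones included, the order was different: the members were 0.962% ± 0.0261 in beta cells, 1.38% ± 0.144 in alpha, 1.53% ± 0.170 in macrophages, 1.81% ± 0.219 in endothelial and 1.90% ± 0.172 in delta cells.

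As a share of UMIs outside hormones, both FUN mice lay below all 3 SKY mice in each of the 5 cell types. The diets overlapped. The lowest SKY value and the highest FUN value were 3.31% and 2.85% in beta cells, 2.64% and 2.29% in alpha, 2.83% and 2.54% in delta, 2.14% and 1.83% in macrophages, then 1.97% and 1.63% in endothelial cells. Complex I summed to 1.15% ± 0.0989 of beta UMIs outside hormones, complex V to 0.926% ± 0.0792, complex IV to 0.755% ± 0.0827, complex III to 0.286% ± 0.0377 and complex II to 0.0529% ± 0.00125 (SD, n = 5). Complex II was the most even across mice, with prefixes that overlapped in beta, alpha, delta and endothelial cells. Of all UMIs, hormones included, the summed members went the other way in beta cells. There FUN mice stood at 0.9725% and 0.9975%, above the 0.9499%, 0.9273% and 0.9632% of SKY mice. The hormone share of beta UMIs was 65.8% and 65.0% in FUN mice and 72.4%, 72.0% and 71.5% in SKY mice. In the other types tested the FUN mice stayed below.

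**Figure D1:**
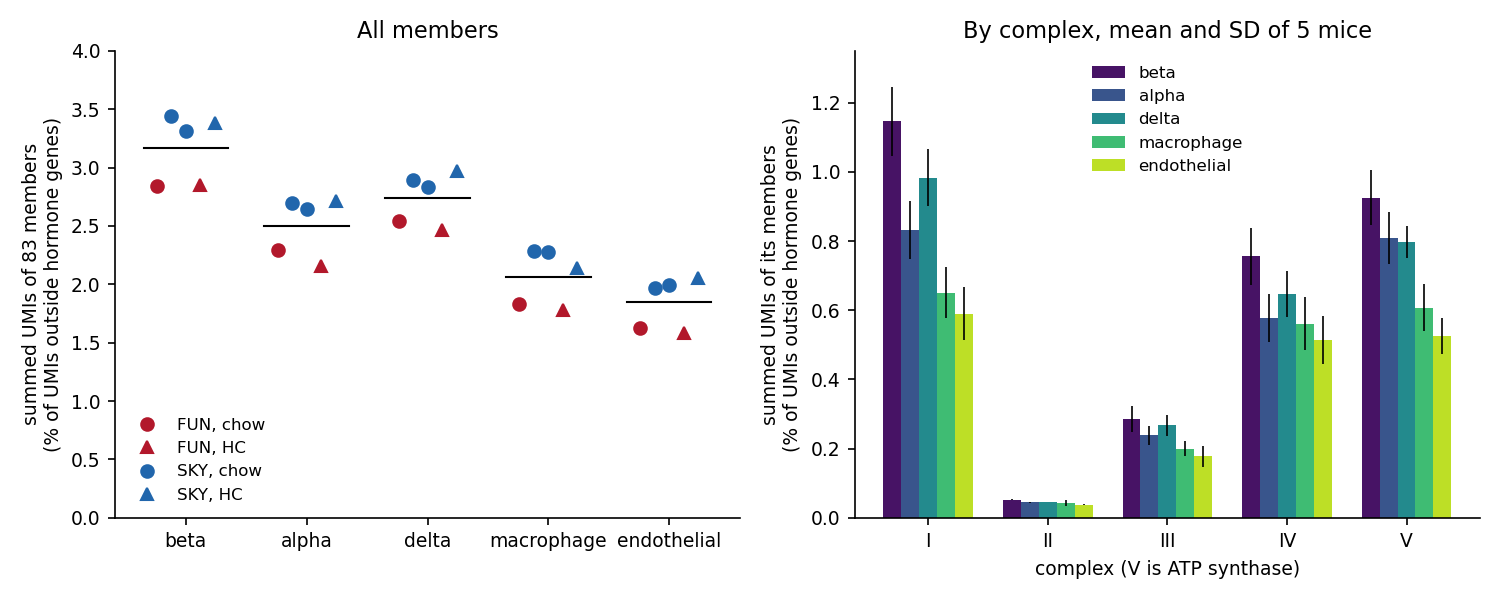
Left, summed UMIs of the 83 members as percent of UMIs outside hormone genes, one point per mouse and cell type (circles chow, triangles HC; red FUN, blue SKY; line, mean of 5 mice); right, the same sum by complex, as bars of the mean with the SD of 5 mice. In each cell type the FUN points lie below the SKY points, and beta cells have the highest mean for each complex.

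Between cell types, 42 of 77 members tested differed between alpha and beta cells (edgeR's quasi-likelihood test with the mouse as a block, Benjamini-Hochberg adjusted p under 0.05 over 10668 genes), 11 higher and 31 lower in alpha. Of all genes, 58.1% differed in this contrast, 30.5% higher and 27.6% lower. In delta against beta cells 9 were higher and 30 lower, with 25.8% and 24.3% of all genes (50.1% in either direction). The members' median log2 difference from beta was -0.11 in alpha and -0.11 in delta, beside 0.03 and 0.01 over all genes. These directions depend on the scaling: with library size alone, which counts hormone transcripts, the median of all genes moved to 0.71 in alpha and 1.19 in delta, and 66 and 76 of the 77 members were called higher than in beta. Relative to that shift the members' medians remained below, by -0.13 and -0.11.

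Of the 7 core subunits of complex I, 5 were lower in alpha and 4 in delta cells than in beta, and 0 were higher. Their median log2 difference was -0.34 in alpha and -0.21 in delta cells. With library size alone 5 and 6 of the 7 were called higher. Among the accessory subunits, Ndufb8 and Ndufv3 were lower in alpha cells, with log2 differences of -0.86 ± 0.0639 and -0.87 ± 0.0655 (adjusted p = 1.68e-25 and 2.61e-25, edgeR). Ndufb8, whose protein is a common marker of assembled complex I, stood at 568, 622, 542, 498 and 533 CPM in beta cells and at 298, 304, 280, 231 and 244 in alpha cells of chow mice 1, 2 and 3 and HC mice 1 and 2. The groups did not overlap. Ndufa6, a small accessory subunit of the matrix arm, went the other way: it was 0.78 ± 0.0642 higher in alpha (adjusted p = 2.67e-22) and 0.33 ± 0.0698 higher in delta cells (adjusted p = 2.32e-05) on the log2 scale. Ndufs4, a subunit of the same arm, was 0.22 ± 0.0837 higher in delta cells. The signs named for these 4 genes held under the 5 scalings. An exon of Ndufb8 overlaps another gene model on the same strand (Gm20538), as do exons of Ndufb2, Ndufb9 and Atp5o, so their counts are uncertain.

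In complex II, which oxidises succinate, the members differed one by one. Sdhd, a membrane anchor, was 0.33 higher in alpha than in beta cells (log2) and lower in delta cells, at -0.31, as was Sdhc, the other anchor, at -0.30, all past the test by edgeR, although the delta differences were above 0 with library size alone. Sdha, the catalytic flavoprotein, was -0.38 in alpha cells and past the test (0.31 with library size alone), while Sdhb, the iron-sulfur subunit, gave -0.14 and -0.13 and did not pass. In complex III, Uqcrh, the hinge protein that helps dock cytochrome c, was higher in alpha (0.40 ± 0.0581) and in delta cells (0.27 ± 0.0609). Uqcrfs1, the Rieske iron-sulfur protein, was higher in alpha cells (0.42 ± 0.0694). Uqcrq, a small membrane subunit, was lower in delta cells (-0.86 ± 0.0691), though 0.33 above beta with library size alone.

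In complex IV, Cox5a was highest in beta and lowest in alpha among the endocrine cells. This subunit of cytochrome c oxidase (chr9:57521274-57532426, plus strand, GRCm38) stood at 304, 338, 283, 299 and 323 CPM in beta cells of chow mice 1, 2 and 3 and HC mice 1 and 2, and at 148, 127, 101, 88.7 and 107 in alpha cells. Delta cells stood at 223, 213, 188, 145 and 226. Beta cells lay above both, and delta cells lay above alpha cells except that HC mouse 1 in delta fell short of chow mouse 1 in alpha cells. The log2 differences by edgeR were -1.27 ± 0.0781 for alpha against beta and 0.63 ± 0.0916 for delta against alpha cells (adjusted p = 1.22e-27 and 7.99e-09), with the same signs under the 5 scalings. Cox7a2l, a factor that links complexes III and IV, was lower in delta than in beta cells (-0.77 ± 0.0596, but 0.42 with library size alone), and Cox7c was higher in alpha cells (0.48 ± 0.0569).

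In complex V, Atp5e, the epsilon subunit of the central stalk, separated delta from alpha cells, at -0.71 ± 0.0604 on the log2 scale (adjusted p = 5.96e-21, edgeR). Atp5b, the catalytic beta subunit, was also lower in delta than in alpha cells, at -0.39 ± 0.0645 (adjusted p = 8.39e-08), but at 0.11 with library size alone. Sdhd was -0.64 ± 0.0966 and Ndufa6 -0.45 ± 0.0706 (0.06 with library size alone) in the same contrast, and Ndufb8, Uqcr10 and Ndufc2 were higher in delta cells by 0.45, 0.36 and 0.35. In all 16 of 77 members were higher and 14 lower in delta than in alpha cells, with 18.4% and 18.8% of all genes (37.2% in either direction), and with library size alone 69 were called higher. Atp5c1, the gamma subunit, was 0.22 ± 0.0652 higher in delta than in beta cells, and Atp5e was -0.75 ± 0.0597 (0.44 with library size alone). The 3 genes for the rotor's c subunit, which encode the same mature protein, did not move together: against beta, alpha cells had Atp5g1 at -0.77, Atp5g3 at -0.21 and Atp5g2 at 0.32, all past the test. With library size alone the difference was -0.09 for Atp5g1 and 0.48 for Atp5g3.

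Outside the endocrine cells, endothelial cells had the lowest levels of most members among the types tested. Against beta cells 57 of 77 members were lower in endothelial cells and 3 higher, beside 30.8% and 32.9% of all genes, and the median was -0.48 with -0.0035 over all genes. With library size alone the median of all genes moved to 1.46 and 70 members were called higher. Relative to that shift the members' median was -0.46. Among those furthest below were Atp5g1 (-1.753 ± 0.0940), Atp5e (-1.64 ± 0.0790) and Ndufb2 (-1.52 ± 0.129), with adjusted p from 5.11e-43 to 1.27e-21 by edgeR. The 3 that were higher were Cox5a (0.83 ± 0.0937), Ndufa8 (0.74 ± 0.0956), a complex I subunit stabilised by disulfide bonds, and Cox6a1 (0.27 ± 0.0963). These 6 kept their sign under the 5 scalings.

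In macrophages 24 of 77 members were lower and 11 higher than in beta cells, with 23.3% and 24.9% of all genes, and the median was -0.11 beside -0.07 over all genes. Cox5a stood at 395, 496, 549, 434 and 423 CPM in macrophages of chow mice 1, 2 and 3 and HC mice 1 and 2, above each beta value, with a log2 difference of 1.07 ± 0.0995 (adjusted p = 6.85e-17, edgeR). Cox4i1 (0.68 ± 0.0696), Sdhb (0.71 ± 0.125) and Atp5c1 (0.45 ± 0.0917) were also higher, and Ndufs1 (-0.84 ± 0.290), Atp5g1 (-0.78 ± 0.0895) and Ndufa11 (-0.78 ± 0.112) were lower. With library size alone, where the median of all genes moved to 0.73, Atp5g1 and Ndufa11 stood at 0.03 and 65 members were called higher. With hormone genes also left out Atp5c1 stood at -0.04, so its direction depends on the scaling. Macrophages carried 19.9% ± 6.39 insulin transcripts (SD, n = 5), and after leaving out cells with at least 5% of UMIs from hormones, a choice made after seeing the data, 48 members were lower and 5 higher. The part of endocrine RNA in the other values was not tested.

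Across the contrasts of alpha, delta, macrophage and endothelial cells with beta cells, 12 members were lower than in beta each time and 0 were higher each time. Among them were Ndufa11, Ndufb2, Ndufb8, Ndufb9, Ndufc1 and Ndufv3 of complex I, Uqcrb and Uqcrq of complex III, Cox7a2l and Cox8a of complex IV and Atp5g1 of complex V. The contrasts share the beta cells, and each gene named here was above beta with library size alone in at least 1 contrast. By mean level, 50 members were highest in beta cells, 18 in delta, 6 in alpha, 5 in endothelial cells and 4 in macrophages. In 14 of these the lowest mouse of the highest type lay above the highest mouse of the next type, 11 of them in beta cells, 2 in delta (Ndufs4 and Uqcrc2) and 1 in endothelial cells (Ndufa8).

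**Figure D2:**
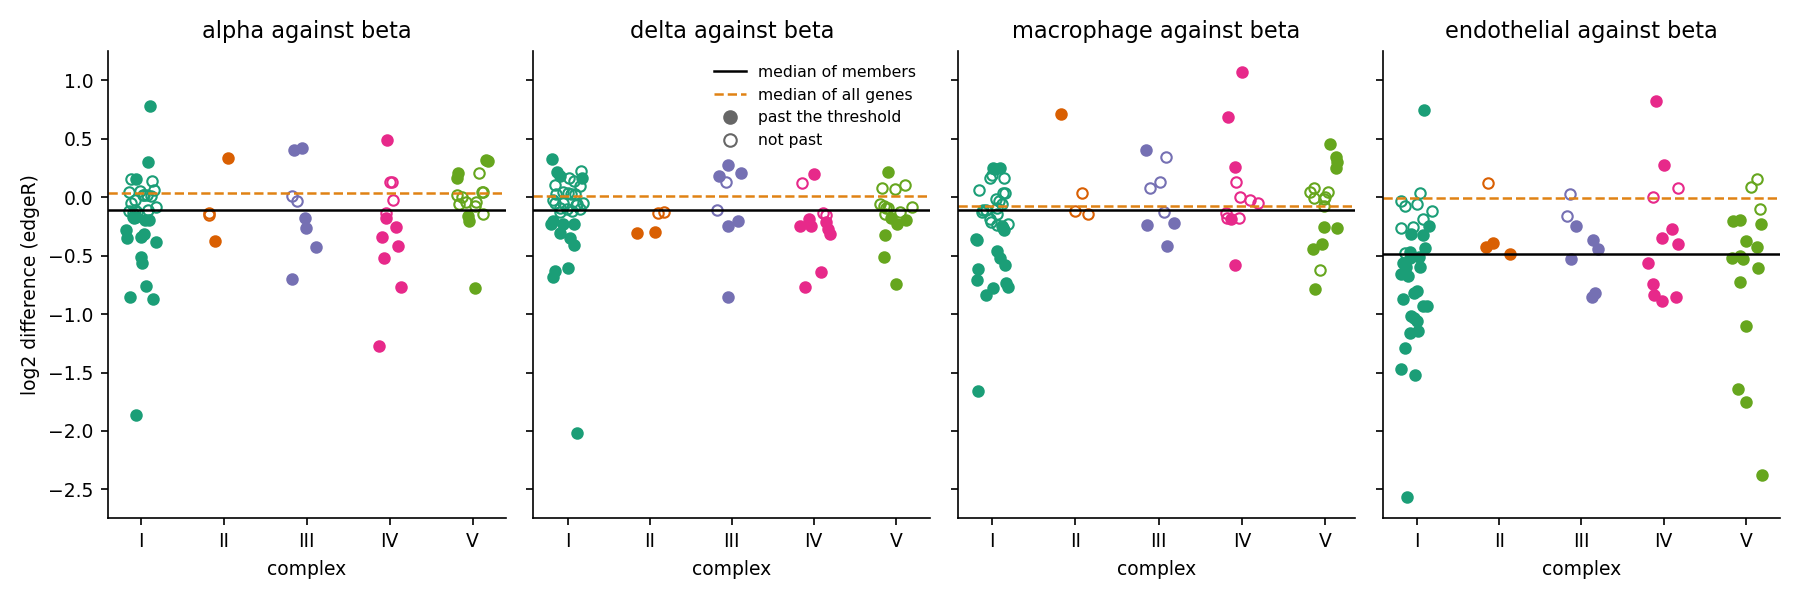
Log2 difference of each of the 77 members from beta cells (edgeR), by complex, in alpha, delta, macrophage and endothelial cells; filled points passed the test, open points did not, and lines give the median of members (solid) and of all genes (dashed). The endothelial median of members is -0.48, and most endothelial points lie below the median of all genes.

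Other lists of the pathway were read in the same fits, beside the shares of all genes given above. Of the 13 mitochondrially encoded subunits, 13 were lower in alpha, 12 in delta, 11 in macrophages and 12 in endothelial cells than in beta cells, with medians of -0.63, -1.21, -0.56 and -1.33. With library size alone these calls were lost or turned: 2, 1, 0 and 0 were lower and 2, 1, 7 and 5 higher, with medians of 0.07, -0.02, 0.23 and 0.16, which lay -0.64, -1.20, -0.49 and -1.30 from the median of all genes. Nuclear assembly factors were lower in 21 and higher in 2 of 43 tested in alpha cells, and citric acid cycle and pyruvate enzymes were lower in 6 and higher in 1 of 18. Electron carriers gave 4 lower of 13, and regulators of mitochondrial biogenesis 1 lower and 2 higher of 11. Of the carriers and uncoupling proteins of the mitochondrial membranes, 8 were higher and 2 lower of 14. Mitochondrial ribosomal proteins were lower in 35 and higher in 12 of 78, while cytosolic ribosomal proteins were higher in 79 and lower in 2 of 88. With library size alone 32 assembly factors, 16 enzymes and 67 mitochondrial ribosomal proteins were called higher in alpha cells. Relative to all genes their medians were then -0.26, -0.14 and -0.14.

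Several complex IV subunits have isoforms that are best known from other tissues, and few of their UMIs were counted in endocrine cells. Cox4i2, the isoform of Cox4i1 known from lung and low oxygen, had 4, 3 and 0 UMIs in all beta, alpha and delta cells, and Cox4i1 had 23923, 9542 and 4255. Ndufa4l2, the partner of Ndufa4, had 12, 2 and 1 UMIs there. Both stood high in 1 cluster of 143 cells led by Mgp, Rgs5 and Acta2. It was given no type, as it had 2 stromal markers among its 10 leading genes, fewer than needed, and a high Ins2 level. In that cluster, singled out after its values were seen, Ndufa4l2 stood at 2410, 1226, 824, 1276 and 829 and Cox4i2 at 1354, 746, 444, 610 and 419 CPM in chow mice 1, 2 and 3 and HC mice 1 and 2. Both genes were among the leading genes of that cluster, so these levels are a description only. Stromal cells, called from collagen genes and as few as 14 in a mouse, had 661, 803, 235, 687 and 277 for Ndufa4l2 and 0 to 85.3 for Cox4i2.

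The isoforms known from heart and skeletal muscle were low but not spread evenly. Cox6a2 stood at 6.55, 10.8 and 13.1 CPM in beta cells of chow mice 1, 2 and 3 and at 8.93 and 4.72 in HC mice 1 and 2 (232 UMIs in all). In alpha cells it had 2 UMIs and in delta and endothelial cells 0. Cox7a1, with 136 UMIs over the 5 libraries, stood at 0.182 to 2.70 in beta cells. Of the isoforms known from testis, Cox6b2 stood at 3.90 to 16.4 in alpha cells (97 UMIs). In beta cells it stood at 0 to 0.803 (10 UMIs). Cox7b2 had 6 UMIs in beta and 5 in alpha cells. By mean level, macrophages were the highest of the types tested for Cox6b2 and Cox7a1 and came next after beta cells for Cox6a2. In each case the highest type overlapped with the next between mice. Macrophage sums held only 188636 to 381015 UMIs per mouse, hormones included, so their levels of these 3 genes rest on few UMIs.

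**Figure D3:**
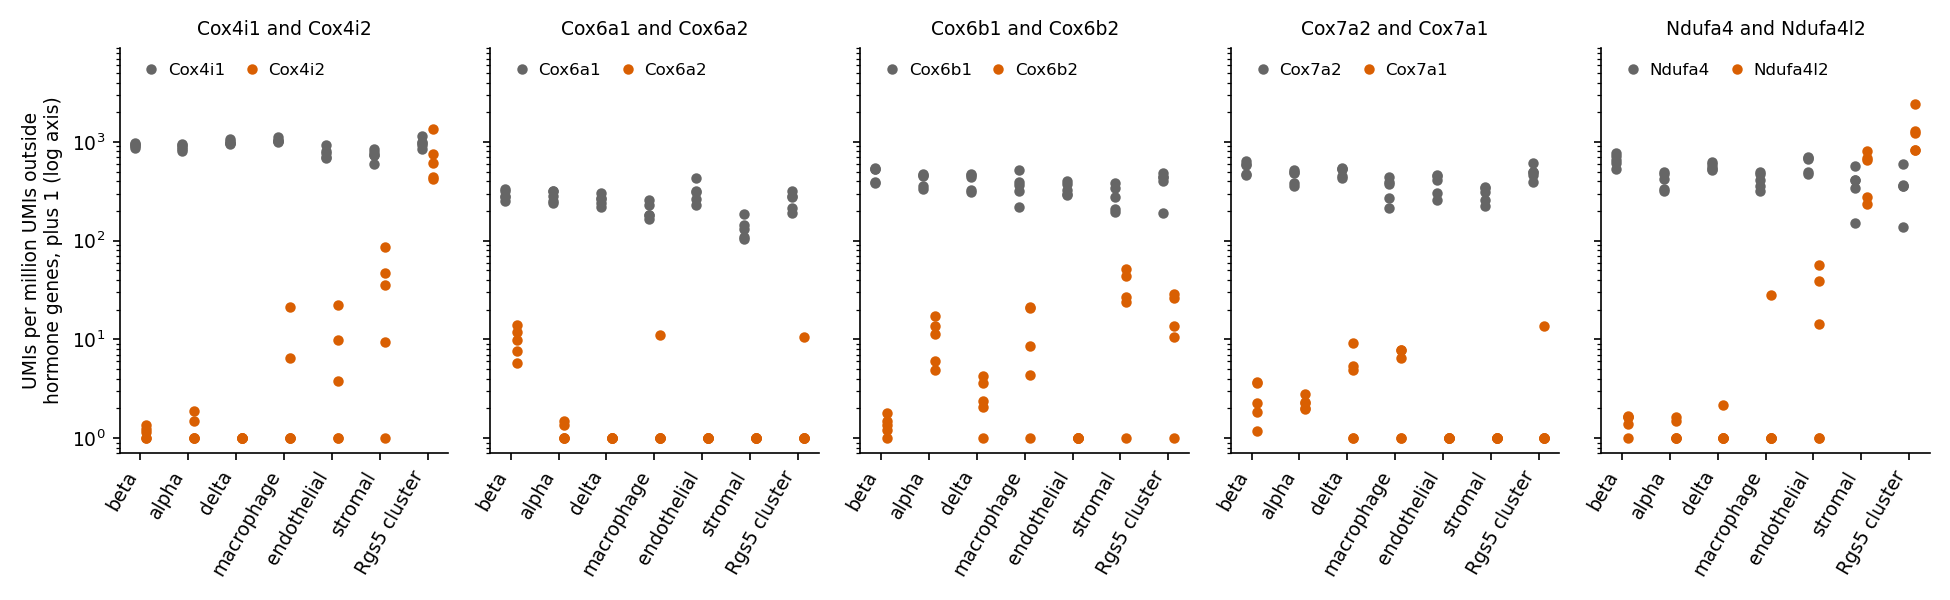
Levels of 5 common subunits (grey) and their alternative isoforms (orange) by cell type, one point per mouse, as CPM outside hormone genes plus 1 on a log axis. In the cluster led by Rgs5, Ndufa4l2 lies between 824 and 2410 and Cox4i2 between 419 and 1354, and both are near 0 in endocrine cells.

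The study compared the HC diet with chow, and 0 members passed that test in any of the 5 cell types (edgeR, adjusted p under 0.05). In beta cells 0.00855% of 11701 genes passed, in alpha 0.0473% of 10568, in delta 0.0% of 9071, in macrophages 0.0752% of 2661 and in endothelial cells 0.0% of 4460. At an unadjusted p under 0.05 the members gave 1 of 79, 3 of 78, 2 of 77, 1 of 75 and 1 of 75. The shares of all genes above are for adjusted p, so these counts have no background here. DESeq2 also called 0 members in each type. Median log2 differences (HC over chow) were -0.01 in beta, -0.11 in alpha, -0.01 in delta, -0.09 in macrophages but 0.01 in endothelial cells, beside medians between -0.012 and -0.00092 over all genes. By spliced transcript length, other genes in alpha cells had medians of -0.14 under 500 bases, -0.10 from 500 to under 700 and 0.06 at 2500 and over. Members of the same lengths had -0.13, -0.10 and -0.07. In alpha cells 11 of 78 members were above 0, and the edgeR median was 0.03 without HC mouse 1. On another scale, log2 CPM without the TMM scaling of edgeR, the members' median was -0.11 within the FUN pair and 0.03 within the SKY mice. On that scale other genes under 500 bases had medians of -0.07 and 0.04, and those of 2500 bases and over 0.08 and 0.10.

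In beta cells the members of small p were Cox6a2 and Ndufb8 among the lower and Atp5o, Sdhc and Ndufa4 among the higher ones. Ndufb8 stood at 568, 622 and 542 under chow against 498 and 533 under HC, so the groups did not overlap. Its log2 difference was -0.15 ± 0.101 (SE; adjusted p = 0.946, edgeR), with -0.19 within the FUN pair and -0.12 within the SKY mice. For the whole list 0 members lay above and 4 below all chow mice, where 9.02% and 12.2% of all genes did. Cox6a2 gave -0.54 ± 0.332, but 0.40 within the FUN pair, and Atp5o gave 0.13 ± 0.0949.

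In alpha cells Cox6b2, the isoform known from testis, gave the smallest p of the list. It stood at 16.4, 10.4 and 12.6 CPM in chow mice 1, 2 and 3 and at 5.00 and 3.90 in HC mice 1 and 2. The HC mice lay below the chow mice, from 97 UMIs in all (chr7:4751792-4753094, minus strand). The log2 difference was -1.58 ± 0.346 (adjusted p = 0.190, edgeR), and with no filter on low counts, which tests more genes, it was -1.57 with an adjusted p of 0.0151. Ndufb8 (-0.36 ± 0.117, adjusted p = 0.625) was lower in each HC mouse than in each chow mouse, at 231 and 244 against 280 to 304. Cox5a (-0.41 ± 0.151, adjusted p = 0.643) gave -0.74 within the FUN pair and -0.08 within the SKY mice. The smallest p among the higher members were those of Atp5b, Atp5a1 and Atp5g3, from 0.07 to 0.12 on the log2 scale. Non-overlap was found for 3 members above and 8 below, with 15% and 7.36% of all genes.

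In delta cells Ndufa9, an accessory subunit near the quinone site, stood at 84.5, 85.1 and 79.6 under chow against 60.96 and 48.1 under HC (-0.61 ± 0.194, adjusted p = 0.998, edgeR). Uqcrc1, a core protein of complex III, stood at 123, 95.4 and 117 under chow against 145 and 144 under HC (0.38 ± 0.160, adjusted p = 0.998). Ndufb6 (-0.25), Ndufb4 (-0.20), Sdhd (0.26) and Atp5c1 (0.13) followed. Neither of the first pair overlapped between diets, and 3 members lay above and 4 below, with 8.4% and 8.83% of all genes. In macrophages Ndufa5 gave 0.94 ± 0.403 and Ndufs8, a core subunit of complex I, -0.80 ± 0.393 (adjusted p = 0.997 for both), from 112 and 80 UMIs. Ndufa5 stood at 30.4, 74.7 and 120 under chow against 130 and 165 under HC. Sdhc (-0.63), Atp5b (0.32) and Ndufb10 (0.16) followed, also not past the test. There 2 members lay above and 12 below, with 8.42% and 9.81% of all genes. Of macrophage UMIs, hormone transcripts took 28.9% ± 1.56 under chow (SD, n = 3) but 20.3% ± 2.20 under HC (SD, n = 2), without overlap, and their part in these values was not tested. In endothelial cells Ndufb6 gave -0.76 ± 0.335 (adjusted p = 1.00), Sdhd -0.58, Ndufb8 -0.39, Ndufb5 0.26, Atp5h 0.23 and Atp5o 0.25 ± 0.208, with 4 members above and 5 below beside 7.89% and 9.24% of all genes.

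**Figure D4:**
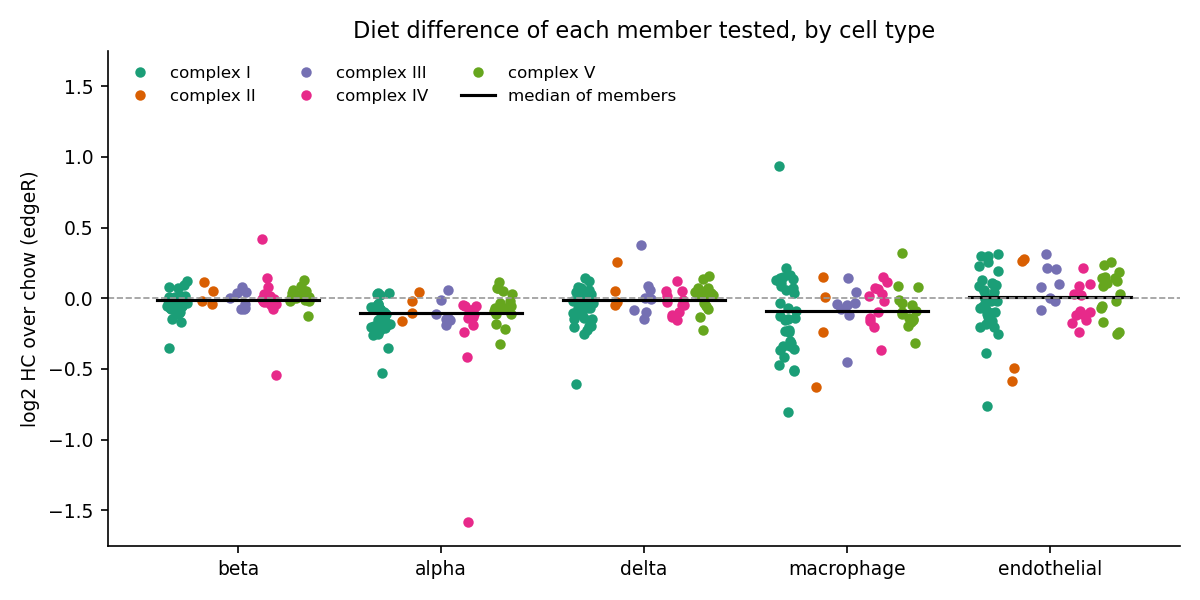
Log2 HC over chow (edgeR) of each member tested, by cell type and coloured by complex, with the median as a black line. The medians lie between -0.11 and 0.01; the lowest point is Cox6b2 in alpha cells and the highest Ndufa5 in macrophages, and 0 points passed the test.

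Mitochondrially encoded subunits gave other values than the nuclear ones in the same fits. Their median log2 HC over chow was 0.26 in beta cells, 0.37 in alpha and 0.25 in delta cells, with 10, 12 and 11 of 13 above 0, and 0 passed the test. In alpha cells 8 of the 13 were higher in both HC mice than in each chow mouse, as were 15% of all genes. Mt-Nd3, with the smallest p in beta cells, gave 0.36 ± 0.108 there (adjusted p = 0.851, edgeR). Assembly factors had medians of -0.07, -0.11 and 0.03, electron carriers -0.07, -0.06 and -0.08, citric acid cycle and pyruvate enzymes 0.03, -0.02 and -0.01, membrane carriers -0.01, -0.11 and -0.03, regulators of biogenesis -0.02, -0.03 and 0.19 and mitochondrial ribosomal proteins -0.05, -0.14 and -0.01 in beta, alpha and delta cells. Cytosolic ribosomal proteins gave -0.01, -0.11 and -0.03. None of these lists had a member past the test.

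The diet difference itself was also compared between alpha and beta cells. By edgeR 0 of 79 members passed the test of the interaction, where 0.113% of 12430 genes did (0.0322% higher, 0.0805% lower). At an unadjusted p under 0.05 there were 9 members, a count with no share of all genes beside it here. The members' median of alpha minus beta was -0.11, with 10 members above 0, and is not set against all genes here. Ndufb1-ps (-0.40 ± 0.112) and Cox5a (-0.45 ± 0.125) had the smallest p, with adjusted p = 0.197 for both. Ndufa3 followed at -0.34 ± 0.132. Among those above 0 were Uqcrc2 (0.13) and Ndufb7 (0.08).

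Between the library-name prefixes the members did differ. In SKY against FUN mice 25 of 79 members tested were higher in beta cells, 21 of 78 in alpha and 16 of 77 in delta cells, and 0 were lower (edgeR, adjusted p under 0.05). Of all genes, 0.897% were higher in beta, 0.766% in alpha and 0.86% in delta cells, and 0.094%, 0.0379% and 0.209% lower (0.991%, 0.804% and 1.07% in either direction). The members' medians were 0.23, 0.21 and 0.22 on the log2 scale, beside -0.0016, -0.0047 and 0.00042 over all genes. From log2 CPM without the TMM scaling of edgeR, the medians were 0.26, 0.15 and 0.14 within the chow mice and 0.22, 0.26 and 0.21 within the HC mice. Both FUN mice lay below all SKY mice for 45, 42 and 41 members and above for 5, 4 and 3, where 11.6%, 8.23% and 9.05% of all genes lay one way and 12.9%, 12.5% and 13.4% the other. The 3 cell types come from the same 5 libraries and are not independent.

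These counts rest on few mice. Without chow mouse 1 or without HC mouse 1, which leaves a single FUN mouse assumed to vary like the SKY mice, 15 members passed in beta cells. In alpha cells 13, 12, 11 and 13 passed without chow mouse 2, chow mouse 3, HC mouse 1 and HC mouse 2, and in delta cells 7 passed without HC mouse 1 and 7 without HC mouse 2. In each of these fits the median stayed above 0.

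In all 3 endocrine types 14 members were higher in SKY mice. They were Ndufa1, Ndufa2, Ndufa3, Ndufb1-ps, Ndufb2 and Ndufc1 of complex I, Uqcr10 and Uqcr11 of complex III, Cox6b1, Cox6c and Cox7c of complex IV and Atp5e, Atp5j2 and Atp5k of complex V. A further 8 passed in 2 types (Ndufa5, Ndufa7, Ndufb4, Ndufv3, Cox7a2, Cox7b, Cox8a and Atp5mpl) and 4 in 1 type (Ndufa13, Uqcrq, Atp5l and Ndufa4). Of the rest, 54 were tested and passed in none.

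Atp5k (chr5:108433244-108434448, minus strand), subunit e of ATP synthase, stood at 138 and 142 CPM in beta cells of chow mouse 1 and HC mouse 1 (FUN) and at 256, 218 and 264 in chow mice 2 and 3 and HC mouse 2 (SKY). Ndufb1-ps (chr12:101968090-101977068, minus strand), which the annotation classes as a long noncoding RNA at a bidirectional promoter, stood at 166 and 159 in FUN mice and at 331, 292 and 305 in SKY mice. Cox6c, a small subunit of cytochrome c oxidase, stood at 481 and 472 against 772, 753 and 808. For each of the 3 genes the SKY mice of both diets lay close together and well above the FUN mice. The log2 differences were 0.82 ± 0.100, 0.93 ± 0.0880 and 0.72 ± 0.0786, with adjusted p = 0.00115, 7.77e-04 and 8.00e-04 (edgeR).

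Alpha and delta cells gave values of like size. Atp5e stood at 859 and 746 in alpha cells of FUN mice and at 1295, 1338 and 1551 in SKY mice, a log2 difference of 0.83 ± 0.111 (adjusted p = 1.29e-04, edgeR). Uqcr10, a small subunit of complex III, stood at 217 and 216 in delta cells of FUN mice and at 396, 412 and 393 in SKY mice, a difference of 0.92 ± 0.115 (adjusted p = 3.475e-05). Both genes separated the prefixes with no overlap. Insulin transcripts took 6.23% and 7.15% of delta UMIs in FUN mice but 3.66%, 1.62% and 1.11% in SKY mice. Their part in the delta values was not tested. In macrophages and endothelial cells, where this contrast was not tested, Uqcr10 stood at 137 and 152 against 258, 219 and 285 and at 175 and 104 against 196, 271 and 285.

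The large catalytic and core subunits were not past this test. In beta cells Atp5a1, the alpha subunit of ATP synthase, stood at 513 and 512 in FUN mice and at 494, 505 and 514 in SKY mice. Atp5b stood at 580 and 584 against 567, 617 and 621. The prefixes overlapped for both, with log2 differences of -0.01 ± 0.0751 and 0.06 ± 0.0785 (adjusted p = 0.979 and 0.903, edgeR). Of the 7 core subunits of complex I, 0 passed, with a median of 0.01. In complex II Sdha gave -0.02 ± 0.0877, Sdhb 0.04 ± 0.0838, Sdhc -0.15 ± 0.0976 and Sdhd 0.27 ± 0.0901, and 0 passed. Among the small p below 0 were those of Atp5s (-0.44 ± 0.154, adjusted p = 0.426, edgeR), Cox7a2l (-0.15) and Sdhc in beta, Cox7a2l (-0.20), Ndufa10 (-0.16) and Atp5s (-0.16) in alpha and Ndufa8 (-0.20) and Atp5c1 (-0.13) in delta cells. In beta cells Cox4i1 gave -0.03 ± 0.0785 and Uqcrc1 0.05 ± 0.102. The medians by complex in beta cells were 0.24 for complex I (11 of 36 passed), 0.01 for II (0 of 4), 0.28 for III (3 of 8), 0.37 for IV (6 of 14 tested) and 0.09 for V (5 of 17).

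Members past this test mostly had short transcripts. By the median spliced length of their annotated transcripts, those past the test in beta cells had a median of 550 bases and the other 54 a median of 866. In beta cells 8 of 12 members under 500 bases passed, 10 of 23 from 500 to under 700, 4 of 18 from there to under 1000, 2 of 11 from there to under 1500, 1 of 11 from there to under 2500 and 0 of 4 at 2500 and over. The longest was Ndufb2, whose shortest transcript has 455 bases. Spearman's rho between length and log2 difference across members was -0.62 in beta cells (n = 79 genes), -0.58 in alpha (n = 78) and -0.61 in delta cells (n = 77). Over all genes it was -0.15, -0.09 and -0.09. Genes of 1 library are not independent, and these are descriptions.

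Other short genes also had medians above 0. Of 123 other genes under 500 bases in beta cells, 24.4% passed upwards with a median of 0.35, where the members' median was 0.65. From 500 to under 700 bases 7.67% of 313 other genes passed, with a median of 0.15 beside 0.34 for members, and from 1500 to under 2500 bases 0.101% of 2957. Of cytosolic ribosomal proteins under 500 bases, 9 of 11 passed in beta cells, with a median of 0.73. In all, 21 of 89 cytosolic ribosomal proteins, 4 of 47 assembly factors (Cox17, Pet100, Ndufaf8 and Uqcc2) and 3 of 78 mitochondrial ribosomal proteins (Mrpl52, Mrpl33 and Mrps21) were higher, while electron carriers, citric acid cycle and pyruvate enzymes, membrane carriers and regulators of biogenesis gave 0 in beta cells. The part of transcript length in the prefix difference was not tested.

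**Figure D5:**
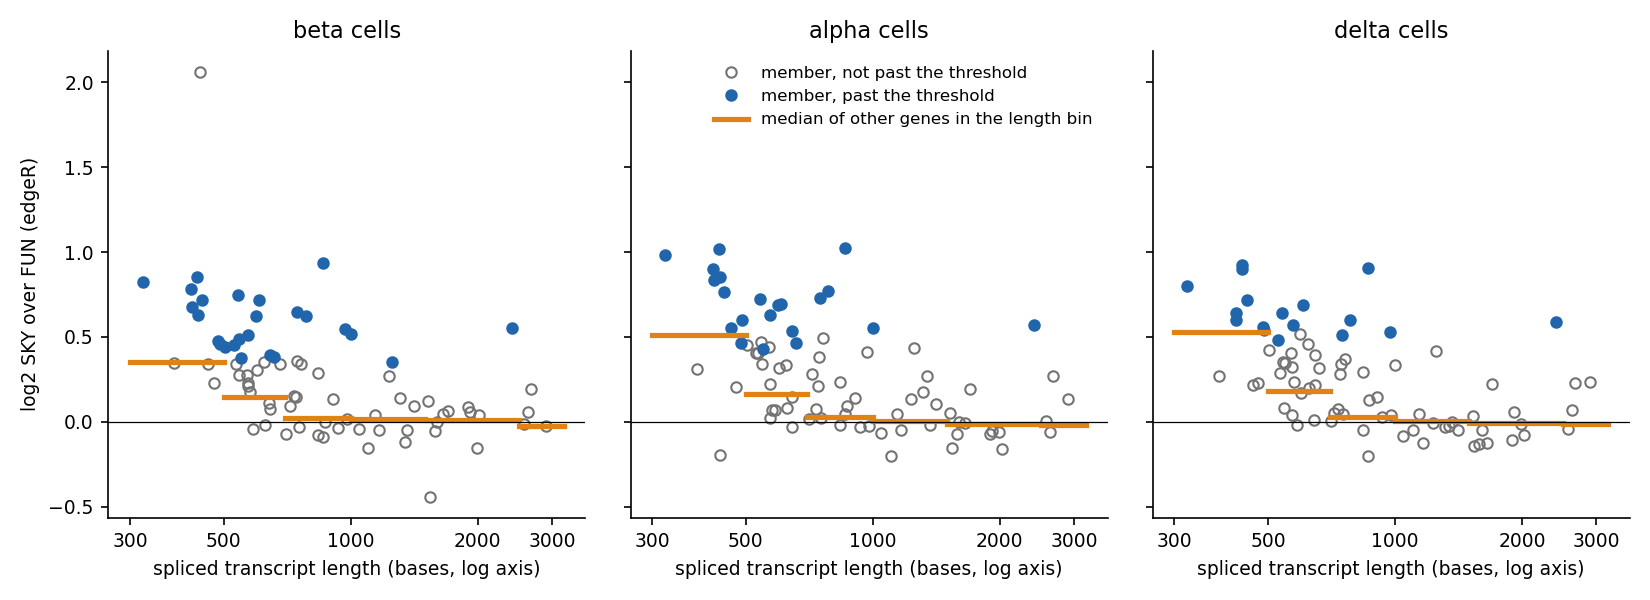
Log2 SKY over FUN (edgeR) of each member against the spliced transcript length in bases (log axis) in beta, alpha and delta cells; filled points passed the test, and bars give the median of the other genes in each length class. Members under 500 bases lie highest, at a median of 0.65 in beta cells, and those over 1000 bases lie mostly near 0.

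The mitochondrially encoded subunits had medians below 0. Their median SKY over FUN was -0.34 in beta, -0.20 in alpha and -0.30 in delta cells, with 5, 5 and 4 of 13 above 0, alongside the lower mitochondrial share of SKY cells. Mt-Nd1 and mt-Nd4 were lower in delta cells, at -0.44 ± 0.0982 and -0.38 ± 0.0872 (adjusted p = 0.0196 and 0.0288, edgeR). Of the subunits above 0, mt-Atp8 passed the test as higher in beta (1.02 ± 0.168, adjusted p = 0.0184) and in alpha cells (1.11 ± 0.194, adjusted p = 0.00266). Its annotated gene has 204 bases, which need not be the length of the RNA. Mt-Nd4l (297 bases) gave 0.73 and 0.69 and mt-Nd3 (348 bases) 0.05 and 0.14 in beta and alpha cells, not past the test. Mt-Atp6 gave -0.36 and -0.25, also not past.

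Promoters of respiratory chain genes are known for sites of the factors NRF1 and GABP, an ETS protein. RefSeq promoter sequences (GRCm38.p6, 250 bases before the start) were matched for 65 of the 83 members, and both strands were searched for the NRF1 letters and the ETS letters that stand in capitals in the lines below. NRF1 letters stood in 4 of 65 member promoters (6.15%), beside 0.885% of 26794 genes, and ETS letters in 3 (4.62%), beside 3.26%. The windows below show the motif in capitals, from Atp5k and Uqcr11, which were higher in SKY mice in 3 cell types, and from Atp5g2, Cox6a1 and Ndufa11, which passed in none. By GENCODE the Atp5k and Atp5g2 windows overlap annotated exons of these genes, so they are wholly upstream only of the RefSeq start. The Cox6a1 window overlaps an exon of Gm42903.
Atp5k, chr5:108434430-108434459, minus strand, NRF1: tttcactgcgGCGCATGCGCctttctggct
Uqcr11, chr10:80406869-80406898, minus strand, ETS: ttctctcctccCCGGAAGTagatgtcaatg
Atp5g2, chr15:102671070-102671099, minus strand, NRF1: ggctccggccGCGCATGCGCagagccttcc
Cox6a1, chr5:115349101-115349130, minus strand, NRF1: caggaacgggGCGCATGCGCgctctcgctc
Ndufa11, chr17:56717692-56717721, plus strand, NRF1: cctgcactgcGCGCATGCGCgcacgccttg
Among the 11 matched members that were higher in 3 types, 1 held the NRF1 letters (9.09%), and among the 43 that passed in none, 3 did (6.98%). ETS letters stood in 1 of the same 11 (9.09%) and in 2 of the 43 (4.65%). Those 2, Atp5h and Uqcrh, are not shown above. A match is a run of letters and not a measured binding site.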

How the data were processed

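Single-cell RNA sequencing of hand-picked islets from 5 mice was analysed from the deposited UMI counts per gene and barcode, 1 table per mouse. The authors made these counts with Cell Ranger 4.0.0 on mm10, per the submitters' processing notes; the annotation release is not given in the sources used here. The protocol in the labels is 3 prime v3 chemistry, which counts the end of a transcript, and values of different genes are set side by side without a test. Intervals and tests cover the spread between these mice, or that of differences within mice where the mouse is a block. A member at 0 UMIs may be below detection.

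Cells with at least 1000 UMIs, 500 genes and at most 15% mitochondrial UMIs were kept. Scrublet marked 14 of 22758 cells (0.0615%), too few to rely on its calls, and no doublet was removed. Cells were clustered on 2000 variable genes without the members, with 30 principal components, 15 neighbours and Leiden resolution 1 (Python 3.11.15, scanpy 1.11.5, igraph 0.11.9). A cluster was named from at least 3 markers among its 10 leading genes, unless another hormone reached 50% of its highest cluster level. Types with at least 20 cells in each mouse were tested.

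Counts were summed per mouse and type and tested with edgeR 4.0.16 (limma 3.58.1, R 4.3.3; TMM, filterByExpr, quasi-likelihood, two-sided, Benjamini-Hochberg over all genes tested, threshold 0.05), with the mouse as a block between types. The procedure was tested on simulated counts: for HC against chow 82% of genes changed by 1 on the log2 scale were recovered in beta cells, 76.5% in alpha and 51% in delta cells, and for SKY against FUN 84.7%, 75.3% and 64.2%. No change smaller than 1 was simulated, so recovery of smaller differences is not known. False calls were 10 of 189, 14 of 183 and 9 of 151 for HC against chow in beta, alpha and delta cells. For SKY against FUN they were 12 of 193, 18 of 182 and 15 of 167. Alternatives were DESeq2 1.42.0, other scalings, filters, cell sets, covariates, the grouping by title and leaving out each mouse. Differences within a prefix or within a diet were taken from log2 CPM outside hormone genes, without TMM, and so are on another scale than the edgeR values. Coordinates and lengths come from GENCODE on GRCm38. Genes named are members past the threshold or of the 3 smallest p per direction (diet, prefix, interaction), the 4 largest differences per direction between types, complex II, and isoforms with their partners; genes beyond these were chosen after their values were seen. The members, the lists (mitochondrially encoded subunits, assembly factors, electron carriers, citric acid cycle and pyruvate enzymes, carriers, regulators, mitochondrial and cytosolic ribosomal proteins) and the look at transcript length were chosen with earlier results of these data known. Results for some genes are not reported here.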

Additional observations from a re-analysis of the deposited data

How the results depend on the processing

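Of 377 values recomputed under alternatives, 329 stayed within 1.5 times the count or 1 SD between mice of the median, and 48 did not. For HC against chow, age as a term moved the members' median to 0.045 in alpha, 0.11 in delta and 0.24 in endothelial cells. Counting HC mouse 2 as chow, as its title says, moved these to -0.28, -0.17 and -0.30, and 3 members (Cox5b, Uqcr10, Cox6c) were then lower in endothelial cells. With no filter on low counts 1 member (Cox6b2) passed in alpha cells. Leaving out each mouse in turn gave medians from -0.14 to 0.09 in beta, -0.26 to 0.029 in alpha, -0.15 to 0.13 in delta, -0.25 to 0.0037 in macrophages and -0.26 to 0.22 in endothelial cells, with 0 members called in each fit. A fit that leaves 1 mouse in an arm assumes that it varies like the others.

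For SKY against FUN, leaving out each mouse gave 15 to 21 members in beta, 11 to 24 in alpha and 7 to 14 in delta cells, with medians from 0.18 to 0.26, 0.15 to 0.32 and 0.20 to 0.23. With members kept among the clustering genes the delta median was 0.16, and 20 members were higher and 1 lower.

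Between cell types, scaling mattered most, and the 2 scalings without TMM and the set without hormone-rich cells were chosen after seeing the data. Library size alone gave 68 members called in alpha against beta (median 0.58), 77 in delta against beta (1.07), 70 in delta against alpha (0.51), 66 in macrophage against beta (0.70) and a median of 0.99 in endothelial against beta. With hormone genes also left out the medians were -0.29 for alpha against beta, 0.19 for delta against alpha, -0.61 for macrophages (69 called) and -0.70 for endothelial cells. DESeq2 gave -0.064 for delta against beta and 0.045 for delta against alpha. Without cells rich in hormones of other types, 53 were called in macrophages (median -0.43), and the endothelial median was -0.68. Without a filter the macrophage median was -0.24. Leaving out each mouse gave 38 to 42 members for alpha against beta, 33 to 40 for delta against beta, 27 to 33 for delta against alpha, 28 to 33 for macrophages and 54 to 59 for endothelial cells.

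Apart from the shift in scaling, the causes of these moves were not tested. The stricter cell filter was not run for endothelial cells, of which it left 5 in chow mouse 3. No paired analysis was possible because the labels give no replicate numbers that the diets share. With the library-name prefix as a term in the diet fit, 0 members were called in each of the 5 types, and the medians ran from -0.07 in alpha to 0.04 in endothelial cells. Depth limits Cox7b2, Cox7a1, Cox6b2, Cox6a2, Cox4i2 and Atp5s, with under 1000 UMIs each.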
